A study of Mus musculus with 12 samples.

Results

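The genes examined here were 10 genes that mark mast cells and basophils, taken from a table of 55335 annotated mouse genes measured by RNA-seq in hematopoietic stem cells (HSCs) with or without *Ythdc1*, which encodes a nuclear reader of N6-methyladenosine in RNA. The members were fixed by name, with earlier results of these data known, and all 10 were found in the table. They are the granule proteases *Cpa3*, *Cma1*, *Tpsb2*, *Mcpt4*, *Mcpt8*, *Prss34* and *Gzmb*, the histamine-forming enzyme *Hdc*, and the IgE receptor subunits *Ms4a2* and *Fcer1a*. The KO libraries came from *Ythdc1* fl/fl Mx1-Cre mice after deletion (*Ythdc1* Δ/Δ) and the WT libraries from *Ythdc1* +/+ Mx1-Cre mice, all on the C57B6 background as the labels write it. Both genotypes carried the interferon-inducible Mx1-Cre transgene, which also acts outside HSCs, and by the study's methods both received pIpC 5 times and donors were 8 weeks old. Each genotype had 6 libraries under 3 sample names, KO176, KO177 and KO209, or WT178, WT180 and WT207, with 2 libraries per name. Whether a name stands for 1 mouse or for a pool is not given in the labels, so the p-values measure the spread between named samples, and the 2 libraries of a name were summed to give 3 samples per genotype.

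Mast cells and basophils are granulocytes that carry the high-affinity IgE receptor FcεRI. When antigen cross-links IgE bound to this receptor, they release histamine and granule proteases. Chymases, tryptases and carboxypeptidase A3 fill the granules of connective tissue mast cells, whereas *Mcpt8* and *Prss34* encode proteases that mark mouse basophils. In bone marrow both lineages descend from progenitors that express c-Kit, *Gata2* and *Cpa3*.

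The libraries held 20809936 to 24563170 counted read pairs each, and the summed samples 42098649 to 48095239. *Ythdc1* itself was read at 56.8, 69.6 and 69.6 CPM (read counts scaled to the library total, TMM-adjusted, and multiplied by 1000000) in KO176, KO177 and KO209 and at 76.0, 72.6 and 92.5 CPM in WT178, WT180 and WT207. The 3 KO samples were all below the WT samples, but the log2 fold change of -0.30 did not pass the test (edgeR adjusted p = 0.521). These counts cover every exon, so the deleted part was not read separately. All 15 of the HSC genes checked had reads, among them *Cd34* at 1180 to 1470 CPM, *Kit* at 161 to 265 CPM, *Mecom* at 10.8 to 27.5 CPM and *Hlf* at 22.2 to 50.5 CPM over the samples. Others were low, with *Hoxb5* at 0.703 to 2.47 CPM, *Fgd5* at 1.7 to 7.49 CPM, *Vwf* at 3.39 to 9.2 CPM and *Slamf1* at 5.92 to 10.9 CPM.

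In the mm10 annotation, *Cma1* (chr14:55941451-55944675), *Mcpt4* (chr14:56059629-56062313), *Mcpt8* (chr14:56082166-56085273) and *Gzmb* (chr14:56258838-56262260) lie on the minus strand within 321 kb of chromosome 14, the mouse mast cell chymase and granzyme cluster. *Prss34* (chr17:25298394-25300165) and *Tpsb2* (chr17:25366305-25369098) lie in the tryptase region of chromosome 17, on the plus strand. *Cpa3* (chr3:20215620-20242181), *Hdc* (chr2:126593667-126619299), *Ms4a2* (chr19:11615523-11623719) and *Fcer1a* (chr1:173221284-173227214) are single genes on the minus strand. Values given here sum reads over all annotated exons of a gene, untranslated parts included.

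RefSeq promoter sequences (GRCm38.p6) were matched by symbol for 9 of the 10 members. The 250 bases before the start site are shown for *Cma1* and *Mcpt4*, 2 of the genes whose KO and WT samples did not overlap below, and for *Cpa3*, the most abundant member. Each reads 5′ to 3′ on the gene's strand, with the letters GATAA, or TTATC for the other strand, in capitals. GATA factors bind such letters.
Cma1 (chr14:55944676-55944925, minus strand): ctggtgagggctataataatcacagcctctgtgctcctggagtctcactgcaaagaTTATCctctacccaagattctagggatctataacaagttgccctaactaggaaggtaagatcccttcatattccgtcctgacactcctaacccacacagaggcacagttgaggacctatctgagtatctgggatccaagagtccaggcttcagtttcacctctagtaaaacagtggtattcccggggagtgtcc
Mcpt4 (chr14:56062311-56062560, minus strand): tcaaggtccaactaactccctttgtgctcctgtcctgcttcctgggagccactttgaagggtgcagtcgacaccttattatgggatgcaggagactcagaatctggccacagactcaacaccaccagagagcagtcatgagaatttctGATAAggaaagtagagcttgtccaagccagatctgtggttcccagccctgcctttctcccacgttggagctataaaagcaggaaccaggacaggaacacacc
Cpa3 (chr3:20242182-20242431, minus strand): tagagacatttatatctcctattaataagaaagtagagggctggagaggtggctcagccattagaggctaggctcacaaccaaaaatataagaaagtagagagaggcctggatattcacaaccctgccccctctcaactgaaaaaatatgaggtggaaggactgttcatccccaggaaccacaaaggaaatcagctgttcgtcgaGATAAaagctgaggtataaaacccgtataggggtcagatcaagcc
GATAA on either strand occurred in 6 of the 9 member promoters and in 22.6% of the 32851 promoters of that length in the table. It began 45 bases before the start site of *Cpa3*, 30 before that of *Prss34* and 102 before that of *Mcpt4*, and on the other strand 194 bases before the start of *Cma1* and 92 before that of *Fcer1a*. *Ms4a2* had 3 occurrences, and *Mcpt8*, *Hdc* and *Gzmb* had none in this window. CATGTG, an E-box of the kind bound by MITF and not overlapping GATAA, occurred on either strand in 2 of the 9, *Prss34* and *Fcer1a*, against 12.3% of all promoters. These letters are a description of the sequence and not evidence of binding.

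The levels of the 10 genes spanned a wide range within the same samples. Scaled to exon length, *Cpa3* had the highest level in WT samples, at 109 ± 38.1 CPM per kilobase (SD, n = 3 for all values given this way), followed by *Mcpt8* at 64.6 ± 18.1 and *Prss34* at 38.1 ± 16.1 CPM per kilobase. *Cpa3* and *Mcpt8* overlapped over the WT samples, and so did *Mcpt8* and *Prss34*. The next were *Fcer1a* at 11.7 ± 1.6, *Hdc* at 4.84 ± 1.15, *Ms4a2* at 1.28 ± 0.157 and *Gzmb* at 0.877 ± 0.21 CPM per kilobase, and none of these neighbours overlapped. The connective tissue mast cell proteases came last, *Cma1* at 0.219 ± 0.23, *Tpsb2* at 0.0711 ± 0.0914 and *Mcpt4* at 0.0589 ± 0.017 CPM per kilobase. *Tpsb2* overlapped both *Cma1* and *Mcpt4* over the WT samples. The lowest WT value of *Cma1*, 0.0783, lay just above the highest of *Mcpt4*, 0.0771 CPM per kilobase, both in WT207. In KO samples *Cma1* and *Tpsb2* stood at 1.62 ± 0.259 and 1.69 ± 0.84 CPM per kilobase, with means above that of *Gzmb* at 0.74 ± 0.39. *Cma1* did not overlap *Gzmb* over the KO samples, but *Tpsb2* did. *Mcpt4* remained lowest at 0.218 ± 0.0569 CPM per kilobase.

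**Figure D1:**
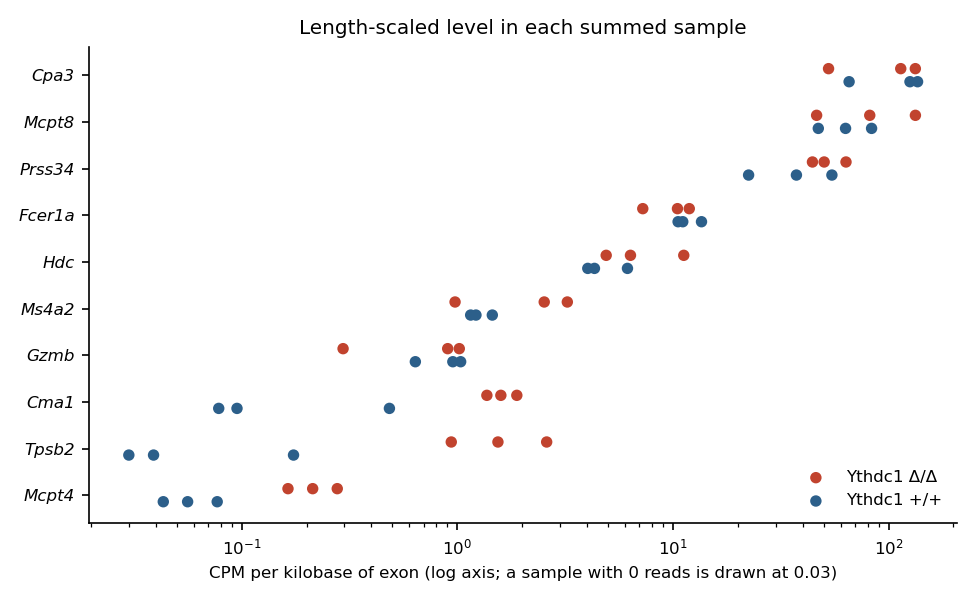
Length-scaled level (CPM per kilobase of exon, log axis) of each gene in the 3 Ythdc1 Δ/Δ (red) and 3 Ythdc1 +/+ (blue) summed samples, ordered by the WT mean; a point is a sample. Cpa3, Mcpt8 and Prss34 sit at the top in both genotypes, and the red and blue points are apart for Cma1, Tpsb2 and Mcpt4.

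The comparison of KO with WT asked whether loss of *Ythdc1* changed these transcripts. None of the 9 members tested passed an adjusted p of 0.05 in edgeR's quasi-likelihood test, in which 0.137% of 18234 genes passed in either direction. The largest differences were those of *Tpsb2* and *Cma1*, both higher in each of the 3 KO samples and both just outside that threshold. Of the 9, 6 had a positive log2 fold change (48.9% of all tested genes did) and 3 a negative one, with a median of 0.47 against -0.01 over all tested genes. *Cma1* and *Tpsb2* had an unadjusted p under 0.05 in edgeR, as did 4.28% of tested genes with KO higher. Both passed the filter on low counts only through the KO samples, so their number carries no weight of its own. Both are also among the 6 positive values, and the members were chosen with earlier results of these data known. The sign count and the median therefore carry no weight either. In bulk RNA a difference in the number of cells of a type and a difference in RNA per cell cannot be told apart.

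*Cma1* encodes mast cell chymase (MCP5), a granule serine protease. Its 6 KO libraries held 38, 49, 56, 23, 43 and 31 reads, and its 6 WT libraries 10, 12, 3, 2, 0 and 4 reads. As summed samples this was 2.06, 1.74 and 1.495 CPM in KO176, KO177 and KO209 against 0.528, 0.104 and 0.0854 CPM in WT178, WT180 and WT207. Every KO library exceeded every WT library, and WT178 was the highest of the WT samples. The mean was 1.76 ± 0.283 CPM in KO and 0.239 ± 0.251 CPM in WT, a log2 fold change of 2.93 (SE 0.461, edgeR adjusted p = 0.0552).

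*Tpsb2* encodes the tryptase MCP6, which is stored in the same granules. Its KO libraries held 106, 69, 57, 55, 29 and 45 reads and its WT libraries 0, 0, 3, 0, 3 and 10 reads. The samples gave 4.14, 2.46 and 1.495 CPM for KO176, KO177 and KO209, and 0, 0.0623 and 0.278 CPM for WT178, WT180 and WT207, where a count of 0 in WT178 allows up to 0.072 CPM (3 counts, counting error only). Again no KO library reached down to the WT range, and KO176 was highest. The means were 2.70 ± 1.34 and 0.113 ± 0.146 CPM, with a log2 fold change of 4.48 (SE 0.675, edgeR adjusted p = 0.062). Tryptase genes are close copies and reads matching several places were not counted, so the split between *Tpsb2* and its copy *Tpsab1*, read 24 times in all KO and 25 times in all WT libraries, is uncertain. The same holds for *Cma1*, *Mcpt4* and the other chymase-like genes of chromosome 14.

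*Mcpt4*, the other chymase of connective tissue mast cells, was too low to be tested. It had 10, 14 and 9 reads in KO176, KO177 and KO209 and 2, 3 and 4 reads in WT178, WT180 and WT207. This corresponds to 0.242 ± 0.0631 against 0.0652 ± 0.0189 CPM. The samples did not overlap, but library by library they did, with 3 to 7 reads in KO and 0 to 3 in WT. For *Cma1*, *Tpsb2* and *Mcpt4* taken singly, an exact two-sided permutation test over the samples gave p = 0.1, the smallest that 3 against 3 allows. Samples did not overlap for 7.75% of all tested genes with KO higher, a share that does not cover the untested *Mcpt4*.

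**Figure D2:**
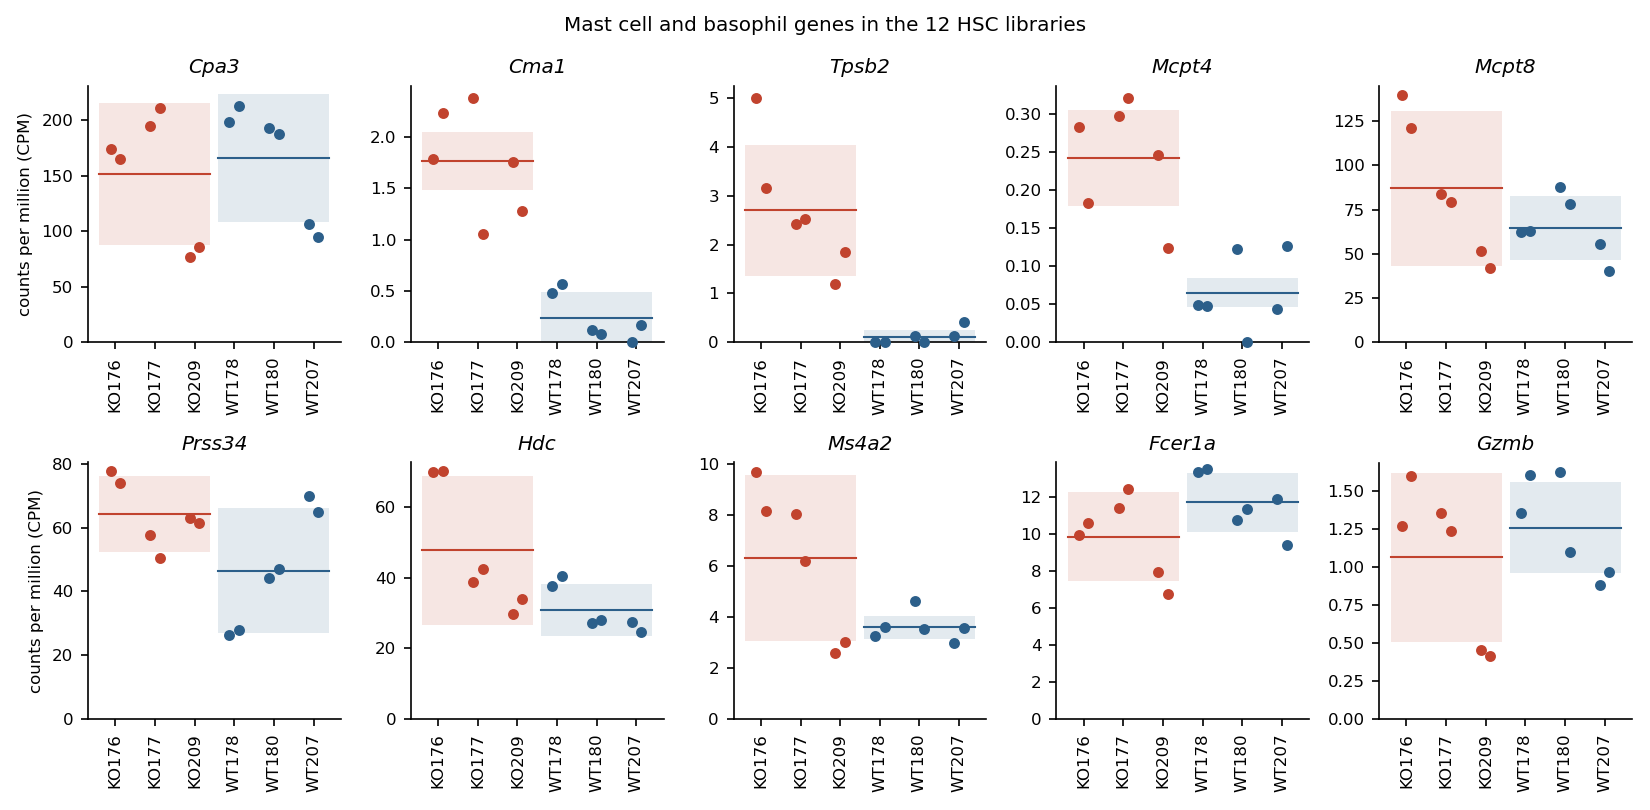
CPM of each gene in the 12 libraries, with the 2 libraries of a sample side by side (red, Ythdc1 Δ/Δ; blue, Ythdc1 +/+); lines are means of 3 summed samples and bands 1 SD, cut at 0. Cma1 and Tpsb2 libraries do not overlap between genotypes, whereas those of Cpa3, Mcpt8, Prss34, Hdc, Ms4a2, Fcer1a and Gzmb do.

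The call on *Cma1* and *Tpsb2* depended on how libraries and sample names were treated, while the log2 fold changes stayed positive in all 17 alternatives, at 2.53 to 4.18 for *Cma1* and 3.97 to 6.5 for *Tpsb2*. When KO209 and WT207 were set apart from the other 4 samples by a covariate, their adjusted p in edgeR was 0.0123 and 0.0391, and 0.466% of all tested genes passed. With DESeq2 it was 1.2e-05 and 0.0193, and 1.19% passed. Both also passed with the 12 libraries as separate samples (4.83% of tested genes passed), with a block for the library digit added (4.61%) and with limma's voomLmFit and the sample as a random block (0.842%). Leaving out KO209 gave adjusted p of 0.033 for *Cma1* and 0.0154 for *Tpsb2* in edgeR, and leaving out KO176 gave 0.0831 and 0.0277. Neither passed without KO177 (0.174 and 0.165), without WT178 (0.0777 and 0.317), without WT180 (0.303 and 0.302) or without WT207 (0.277 and 0.0915). They did not pass with edgeR's legacy option either (0.149 and 0.194). In all, *Cma1* passed in 7 and *Tpsb2* in 8 of the 17 alternatives.

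*Cpa3*, the carboxypeptidase shared by mast cells, basophils and their progenitors, was abundant in both genotypes. It was read at 173, 202 and 79.9 CPM in KO176, KO177 and KO209 and at 206.7, 191 and 99.5 CPM in WT178, WT180 and WT207. The genotypes overlapped, and in each genotype the highest-numbered sample, KO209 or WT207, was lowest. The means of 152 ± 63.7 and 166 ± 57.8 CPM gave a log2 fold change of -0.13 (SE 0.443, edgeR adjusted p = 0.95). Its sign turned without KO209 (0.18) and without WT178 (0.06).

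*Mcpt8*, the basophil granzyme-like protease, gave 133, 81.7 and 46.3 CPM in KO176, KO177 and KO209 and 63.1, 83.2 and 47.1 CPM in WT178, WT180 and WT207. KO176 alone lay above the WT range. The log2 fold change was 0.43 (SE 0.434, edgeR adjusted p = 0.798), and it was -0.01 without KO176, 0.74 without KO209, 0.65 without WT180 and 0.25 without WT207. *Prss34*, a basophil tryptase, gave 77.5, 54.1 and 61.4 CPM in the KO samples and 27.4, 45.6 and 66.6 CPM in the WT samples, in the same order. WT178 and WT180 were below all KO samples, but WT207 was not. Its log2 fold change was 0.47 (SE 0.317, edgeR adjusted p = 0.691). It was 0.20 without WT178 and 0.82 without WT207.

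*Gzmb*, a granzyme of cytotoxic lymphocytes that mast cells and basophils can also express, was read at 1.47, 1.30 and 0.424 CPM in KO176, KO177 and KO209 and at 1.49, 1.37 and 0.918 CPM in WT178, WT180 and WT207. The genotypes overlapped, with KO209 lowest of all, and the log2 fold change was -0.26 (SE 0.399, edgeR adjusted p = 0.868), or 0.14 without KO209. It ran from -0.56 to -0.13 when another sample was left out. Within the chromosome 14 cluster, the low-count genes *Cma1* and *Mcpt4* therefore had every KO sample above every WT sample, and *Mcpt8* and *Gzmb* did not.

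*Hdc* encodes histidine decarboxylase, the enzyme that makes histamine. It gave 71.7, 40.6 and 31.3 CPM in KO176, KO177 and KO209 and 39.3, 27.7 and 25.8 CPM in WT178, WT180 and WT207. KO176 was well above the others and KO209 fell within the WT range. The means were 47.9 ± 21.2 and 30.9 ± 7.36 CPM, with a log2 fold change of 0.63 (SE 0.33, edgeR adjusted p = 0.608), or 0.23 without KO176.

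Neither IgE receptor subunit passed the test. *Ms4a2*, the β chain that amplifies FcεRI signals, gave 9.11, 7.12 and 2.75 CPM in KO176, KO177 and KO209 and 3.43, 4.09 and 3.25 CPM in the WT samples. KO176 and KO177 were above and KO209 below every WT sample, and the log2 fold change was 0.81 (SE 0.386, edgeR adjusted p = 0.564). Without KO209 it was 1.17 (edgeR adjusted p = 0.034) and without KO176 0.45 (0.906), and no other sample left out gave a call. *Fcer1a*, the α chain that binds IgE, gave 10.5, 11.9 and 7.23 CPM in KO and 13.5, 11.1 and 10.6 CPM in WT samples. The genotypes overlapped, with a log2 fold change of -0.25 (SE 0.199, edgeR adjusted p = 0.725). It was -0.06 without KO209, -0.13 without WT178 and -0.41 without KO177.

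**Figure D3:**
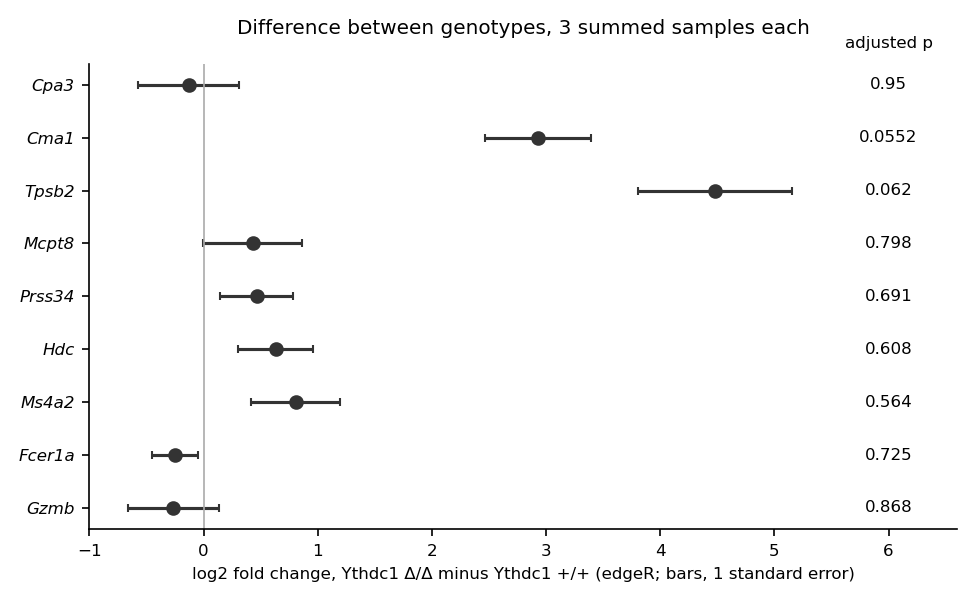
Log2 fold change (Ythdc1 Δ/Δ minus Ythdc1 +/+, edgeR) of the 9 members tested, with bars of 1 standard error and adjusted p at the right; 3 summed samples per genotype. Tpsb2 (4.48) and Cma1 (2.93) lie apart from the other 7, which range from -0.26 to 0.81; Mcpt4 was too low to be tested.

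*Cpa3* differed between the 2 highest-numbered samples, KO209 and WT207, and the other 4. This covariate was read for the members after their values had been seen, and the labels do not say what the numbering stands for. It was lower in KO209 and WT207, at 79.9 against 187 CPM in KO and 99.5 against 199 CPM in WT, a log2 difference of -1.11 (SE 0.12, edgeR adjusted p = 0.00669). By that term 0.225% of all tested genes were lower in KO209 and WT207, and 0.154% were higher. The other members did not pass. *Gzmb* had a log2 difference of -1.08 (adjusted p = 0.122), *Mcpt8* -0.92 (0.161), *Ms4a2* -0.90 (0.161), *Hdc* -0.61 (0.319) and *Fcer1a* -0.42 (0.21) in the edgeR fit, all with the lower level in KO209 and WT207. *Prss34*, like *Mcpt8* a basophil protease, had 0.41 (0.59). The ratio of *Mcpt8* to *Prss34* reads was 1.72 and 1.51 in KO176 and KO177 but 0.755 in KO209, and 2.3 and 1.82 in WT178 and WT180 but 0.707 in WT207. This ratio was chosen after its values were seen, and it separated KO209 and WT207 from the other 4 samples in both genotypes. Summed interferon-response genes were also lower in KO209 and WT207, at 460.9 and 515.7 CPM against 1115 to 2297 CPM in the other 4. So were T and NK cell genes (478.4 and 589.7 against 704.7 to 745.7 CPM) and B cell genes (123.4 and 124.4 against 135.2 to 164.2 CPM). Wider mast cell and basophil lists, members included, were also lower for granule genes (2465 and 2566 against 3098 to 4347 CPM). The same held for receptors (539.7 and 568.5 against 625.9 to 758.8 CPM), transcription factors and IgE receptor signalling. Totals for mediator synthesis and for cytokines did not separate KO209 and WT207. These lists were likewise picked after their values were seen, and a link to *Cpa3* was not tested.

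**Figure D4:**
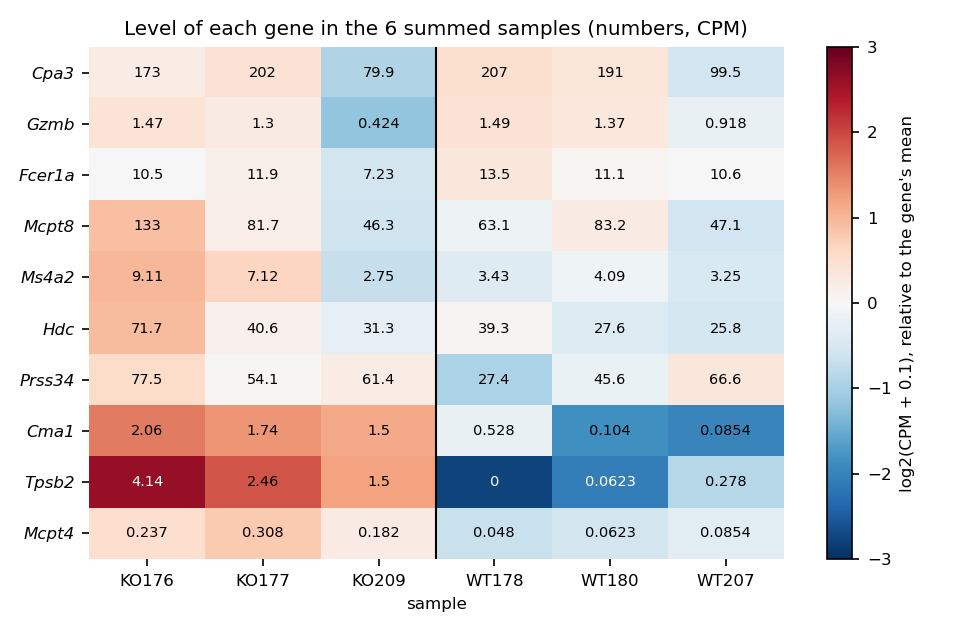
Level of each gene in the 6 summed samples; numbers are CPM and colours log2(CPM + 0.1) relative to the gene's mean over the samples. Cma1, Tpsb2 and Mcpt4 are high in the 3 KO columns, while Cpa3, Gzmb, Mcpt8, Ms4a2 and Fcer1a are lowest in KO209, and Prss34 is lowest in WT178.

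A wider list of 68 other mast cell and basophil genes was examined in the same fit. Of its 57 tested genes, 29 had a positive and 28 a negative log2 fold change, the median was 0.01, and none passed an adjusted p of 0.05 in edgeR (smallest 0.236). At an unadjusted p under 0.05, 3 were higher in KO and 7 lower, where 4.28% and 5.20% of all tested genes were. Samples did not overlap for 2 genes with KO higher and 6 with KO lower, where 7.75% and 8.59% of all tested genes were so placed. The 2 were *Alox5* and *Cd33*, and the 6 were *Slc18a2*, *Cd63*, *Lat*, *Tal1*, *Gata2* and *Il4*.

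Among the other granule genes 4 of 11 were tested, and they included *Cd63*, a granule membrane protein, with a log2 fold change of -0.45 (335 ± 29.4 against 459 ± 51.4 CPM), *Serpinb1a* (0.11), *Ctsg* (0.65) and the granule proteoglycan *Srgn* (-0.04). The 7 untested ones were granule protease genes with few reads. The tryptase *Tpsg1* had 13 reads over all KO and 2 over all WT libraries, and the mucosal mast cell proteases *Mcpt1* and *Mcpt2* had 2 and 3 reads in KO and 2 and 2 in WT. *Mcpt9* had 6 and 2, *Cma2* 2 and 4, and *Gzmc* 12 and 15 reads. The mast cell receptors *Mrgprb2* and *Mrgprb1* were also too low to be tested, with 14 against 10 and 18 against 15 reads.

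Of the 10 genes for mediator synthesis and storage, *Slc18a2*, the vesicular monoamine transporter that loads histamine, had the smallest adjusted p. It stood at 54.3 ± 10.6 CPM in KO and 82.2 ± 3.47 CPM in WT, with every KO sample below WT, a log2 fold change of -0.60 (SE 0.143, edgeR adjusted p = 0.236). *Alox5*, the first enzyme of leukotriene synthesis, stood at 24.3 ± 5.17 against 14.9 ± 2.23 CPM, a log2 fold change of 0.70 (SE 0.179, edgeR adjusted p = 0.27), with every KO sample above WT. The prostaglandin enzymes *Hpgds* and *Hpgd* had log2 fold changes of -0.50 and -0.55. The median of the group was -0.02.

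Of 12 receptor genes tested 8 had a positive log2 fold change, with a median of 0.19. *Cd33*, a sialic acid receptor, stood at 15.9 ± 1.03 CPM in KO and 11.1 ± 0.883 CPM in WT without overlap (log2 fold change 0.52, edgeR adjusted p = 0.27). The IL-33 receptor *Il1rl1* (0.68), the shared cytokine receptor chain *Csf2rb* (0.51) and *Cd200r3* (0.63) overlapped between genotypes. The 12 genes of IgE receptor signalling had a median of 0.07, with the adaptor *Lat* at -0.39, *Lcp2* at -0.16, *Lyn* at 0.14 and *Plcg2* at 0.14. The 12 transcription factors had a median of -0.11. *Gata2*, required for mast cells and basophils, stood at 234 ± 33.6 against 292 ± 13.9 CPM (log2 fold change -0.32, edgeR adjusted p = 0.48), *Tal1* had -0.43, *Ikzf1* 0.19 and *Cebpa* 0.59. Of the cytokines 7 of 8 were tested, with a median of -0.42. *Il4*, made by both cell types, had the most negative value of the cytokines, -1.05 (1.32 ± 0.579 against 2.75 ± 0.353 CPM, edgeR adjusted p = 0.302), followed by *Ccl3* (-0.66), *Ccl4* (-0.64) and *Il6* (-0.42).

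**Figure D5:**
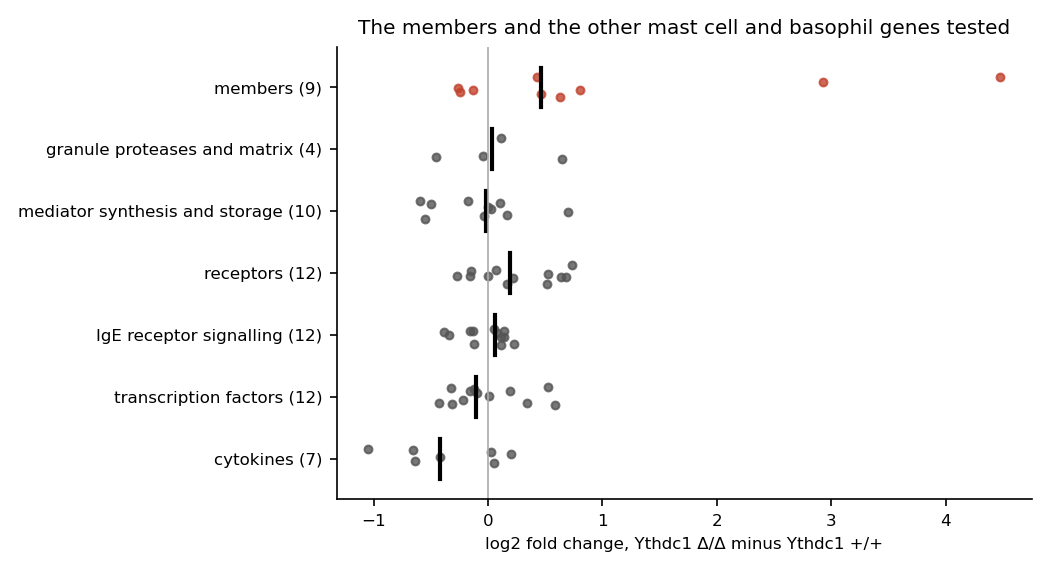
Log2 fold change (Ythdc1 Δ/Δ minus Ythdc1 +/+, edgeR) of the 9 members tested (red) and of the other mast cell and basophil genes tested (grey), by group, with the number of genes in brackets and the median as a black bar; vertical jitter has no meaning. The group medians of the other genes run from -0.42 (cytokines) to 0.19 (receptors), and only Cma1 and Tpsb2 among all points exceed 1.

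The 6 other genes of at least 1 CPM whose levels were most like the mean standardised profile of the 9 tested members over the 12 libraries were *Mrpl47* (Pearson r = 0.974), *H2afz* (0.974), *Ttll9* (0.966), *Bysl* (0.965), *Ttyh2* (0.963) and *Cebpa* (0.96). The 2 libraries of a sample are not independent points, and the profile is a description. Of the members, *Ms4a2* (0.963), *Mcpt8* (0.903) and *Hdc* (0.867) were closest to it, and *Fcer1a* (0.339) and *Prss34* (0.206) farthest.

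Markers of other cells were summed in the same samples. Totals over each list were higher in all KO than in all WT samples for macrophage and monocyte genes (1700 to 2280 against 1410 to 1600 CPM over 11 genes) and for endothelial and stromal genes (186 to 194 against 156 to 183 CPM over 12 genes). They were lower for HSC genes (2250 to 2450 against 2500 to 2810 CPM over 15) and erythroid genes (784 to 1410 against 1480 to 1710 CPM over 11). Totals overlapped for neutrophil and precursor genes (13200 to 24900 against 11100 to 14400 CPM over 15, highest in KO176), eosinophil (192 to 339 against 147 to 320 CPM over 9), B cell (123 to 164 against 124 to 137 CPM over 12), T and NK cell (478 to 715 against 590 to 746 CPM over 14), megakaryocyte (179 to 305 against 294 to 427 CPM over 8), dendritic cell (998 to 1180 against 1060 to 1270 CPM over 9) and interferon-response genes (461 to 2300 against 516 to 2210 CPM over 14). No listed marker was at 0 in every sample. Gene by gene, 3 of the 11 endothelial and stromal genes tested passed in edgeR, all higher in KO: *Lepr* (log2 fold change 2.58, adjusted p = 0.0218), *Adipoq* (3.16, 0.0218) and *Sparc* (1.78, 0.0456), and the median of that list was 0.94. No gene of the other lists passed. Of the B cell genes, 11 of 12 had a positive log2 fold change, with a median of 0.69 and a smallest adjusted p of 0.0622 in edgeR. Among them 7 were higher at an unadjusted p under 0.05 in edgeR (4.28% of all tested genes were), and 5 had every KO sample above WT (7.75%). All 11 macrophage, 15 neutrophil and 9 eosinophil genes had a positive log2 fold change, with medians of 0.67, 0.44 and 0.45. Of the erythroid genes, whose total was lower in KO, 8 of 11 had a positive log2 fold change and 3 a negative one. The median of that list was 0.16. Of the HSC genes, 13 of 15 had a negative one, with a median of -0.39. Among them 6 were lower at an unadjusted p under 0.05 in edgeR (5.20% of all tested genes were), and 5 had every KO sample below WT (8.59%). All 6 megakaryocyte genes tested were negative, with a median of -0.62, 3 lower at that unadjusted p and 3 without overlap. The neutrophil, macrophage, B cell and interferon-response totals were highest in KO176, as were *Hdc*, *Mcpt8*, *Ms4a2*, *Prss34*, *Cma1* and *Tpsb2*. The endothelial and stromal total and the macrophage total, like *Cma1* and *Tpsb2*, were higher in every KO sample. The part of other cells in the members' values was not tested. By the methods, bone marrow was enriched with beads against c-Kit and HSCs were then sorted by flow cytometry.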

How the data were processed

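The 12 libraries were sorted HSCs, amplified with a SMARTer low-input cDNA kit per the labels. The deposited values are read counts per gene. The authors aligned reads to mm10 and counted pairs over exons with featureCounts 2.0.1 and GENCODE vM23, without strand and without reads matching several places, so close gene copies and antisense genes can lose or share reads. No sample column was left unused.

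Counts of the 2 libraries per sample were summed and tested with edgeR 4.0.16 (R 4.3.3) quasi-likelihood, TMM scaling and filterByExpr (minimum count 10, total 15), with Benjamini-Hochberg adjustment over 18234 genes. The self-test ran on simulated counts. CPM used TMM-scaled totals. The SE of a log2 fold change came from the F statistic. Symbols were matched for 55154 of 55335 genes. Alternatives covered blocks, scaling, filters, DESeq2 1.42.0, limma 3.58.1 and leaving out samples. Named genes were all members, *Ythdc1*, called genes of each wider list or else the 4 with the smallest p, and the 6 most alike. The members and lists were chosen with earlier results of these data known.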

Additional observations from a re-analysis of the deposited data

How the results depend on the processing

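With 3 samples per genotype, no member and no other mast cell or basophil gene was called, against 25 genes of all tested. Members called were 2 with the 12 libraries as separate samples, with a replicate block for the digit, with voomLmFit, with a covariate for KO209 and WT207 and with DESeq2. They were 1 with only KO176, KO177, WT178 and WT180 (*Tpsb2*, adjusted p = 0.00249 in edgeR) and 1 without the filter (*Cma1*, 0.00139), and 0 to 3 with 1 sample left out (3 without KO209: *Cma1*, *Tpsb2* and *Ms4a2*). Genes called in the wider list were 7 with libraries separate and 7 with the replicate block, in each 2 higher and 5 lower in KO. There were 2 with voomLmFit (1 higher, 1 lower), 3 with DESeq2 (2 higher, 1 lower) and 0 to 1 with 1 sample left out (1 lower, without KO209). *Slc18a2*, lower in KO, was called in each of these, with adjusted p of 0.0266 in voomLmFit, 0.0366 in DESeq2 and 0.0329 in edgeR without KO209. *Alox5*, higher in KO, was called in all but the last. Genes called overall were 751 with libraries separate, 717 with the replicate block, 131 with voomLmFit, 85 with that covariate and 217 with DESeq2. They were 20 of 18157 tested with only KO176, KO177, WT178 and WT180, and 73 of 45534 without the filter. Upper quartile scaling gave 16, edgeR's legacy option 15, a minimum count of 30 gave 13, and leaving out 1 sample gave 1 to 81. Separate libraries of a sample are not independent. With 1 sample left out, the log2 fold change ran from -0.395 to 0.178 for *Cpa3* (positive without KO209, and 0.064 without WT178), from -0.559 to 0.139 for *Gzmb* (positive without KO209) and from -0.00587 to 0.735 for *Mcpt8* (negative without KO176). Adjusted p over the 17 alternatives ran from 1.2e-05 to 0.303 for *Cma1* and from 0.000215 to 0.317 for *Tpsb2*. The cause was not tested. *Mcpt4* could be fitted only without the filter, at a log2 fold change of 1.83 (adjusted p = 0.428 in edgeR). The medians of the members (0.23 to 0.74) and of the wider list (-0.06 to 0.07) moved by less than the spread between samples. Counts of under 10 reads, as for *Mcpt4* and for *Cma1* and *Tpsb2* in most WT libraries, limit the precision.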
